A study of Mus musculus with 12 samples.

Results

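The genes described here handle iron and copper in the liver: Hamp, Hamp2, Tfr2, Trf, Tfrc, Steap2, Fth1, Ftl1, Slc40a1 and Cp. They were taken by gene symbol from a gene-level table of estimated read counts, and all 10 were found among its 24795 genes. RNA came from whole liver of male mice, either wild-type C57BL/6N (WT) or lacking the selenocysteine lyase gene Scly (Scly KO), the enzyme that releases selenium from selenocysteine for reuse. From weaning and for at least 8 weeks the mice ate a diet with 0.08 ppm selenium as sodium selenite (low selenium, LS) or 0.25 ppm (adequate selenium, named medium selenium, MS, by the study). This made 4 groups, WT LS, WT MS, KO LS and KO MS, with 3 libraries each, named S1 to S3, S4 to S6, S10 to S12 and S7 to S9. Scly KO mice were kept as a homozygous colony apart from the WT colony, so the deletion and any difference between the colonies cannot be told apart. Levels are counts scaled to a common library size (CPM) with factors from the trimmed mean of M values. The sources do not tie each library to its own mouse, so p-values measure the spread between libraries.

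Hepatocytes sense body iron and answer with hepcidin, a peptide hormone that binds the iron exporter ferroportin and has it degraded, which lowers iron entry into blood. Hepcidin transcription is raised by bone morphogenetic protein (BMP) signals, which report iron, and by interleukin-6 acting through STAT3, which reports inflammation. Cell iron itself acts after transcription: iron regulatory proteins bind a stem-loop, the iron-responsive element, which stabilizes transferrin receptor mRNA when it lies in the 3′ UTR and blocks translation of ferritin and ferroportin when it lies in the 5′ UTR. Copper meets iron in ceruloplasmin, a copper-bearing ferroxidase, and in the STEAP reductases, which reduce both metals.

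The iron-responsive elements are shown first because they mark the mRNAs among the 10 on which iron regulatory proteins are known to act, on stability in Tfrc and on translation in the others, a step that RNA counts do not read. A pattern of a stem with an unpaired C and a CAGTGN loop, the loop printed in capitals, was searched in GENCODE transcripts of the mouse genome build mm10 and was held by 1.24% of 21877 protein-coding transcripts. Among the 10 genes it was found in Tfrc, 4 times in the 3′ UTR in exon 19, and once each in the 5′ UTR of Fth1, Ftl1 and Slc40a1. A match is a description of letters and not a test of binding. The sequences are in DNA letters, 5′ to 3′ on the gene's strand.
Tfrc 3′ UTR, chr16:32631219-32631247 (+): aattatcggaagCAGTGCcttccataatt
Tfrc 3′ UTR, chr16:32631598-32631626 (+): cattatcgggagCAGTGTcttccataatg
Tfrc 3′ UTR, chr16:32631663-32631691 (+): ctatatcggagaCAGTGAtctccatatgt
Tfrc 3′ UTR, chr16:32631710-32631738 (+): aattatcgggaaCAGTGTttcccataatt
Fth1 5′ UTR, chr19:9982732-9982760 (+): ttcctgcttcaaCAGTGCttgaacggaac
Ftl1 5′ UTR, chr7:45459779-45459807 (-): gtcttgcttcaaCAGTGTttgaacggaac
Slc40a1 5′ UTR, chr1:45925465-45925493 (-): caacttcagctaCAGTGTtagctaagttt

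Mice carry a pair of hepcidin genes, Hamp and Hamp2, and their proximal promoters are shown because they are close to identical in sequence while the genes differed in level. Over 297 aligned bases of RefSeq promoter (GRCm38.p6, the same build) 276 were identical, or 92.9%. The windows below end 60 and 57 bases before the start sites of Hamp and Hamp2. Capitals mark a BMP-responsive element, GGCGCC, with its aligned bases in Hamp2, and after it a STAT element, TTCNNNGAA.
Hamp promoter, chr7:30944089-30944178 (-): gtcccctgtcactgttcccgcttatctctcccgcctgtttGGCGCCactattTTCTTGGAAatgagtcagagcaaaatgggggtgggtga
Hamp2 promoter, chr7:30924238-30924327 (-): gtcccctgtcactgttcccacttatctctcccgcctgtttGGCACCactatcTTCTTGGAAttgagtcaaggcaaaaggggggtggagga
The element of Hamp differed from the aligned bases of Hamp2 by G4A, with positions counted from 1 at its 5′ end, so GGCGCC was absent from the promoter of Hamp2 while TTCNNNGAA stood in both. Searched on both strands of 32544 RefSeq promoters of 300 bases, GGCGCC was held by 11.94% and TTCNNNGAA by 8.33%. The transcripts shared 388 of 410 aligned bases, with an identical run of up to 87 bases. Their estimated counts were fractional in 12 of 12 libraries, as were those of Cp in 10, so some reads were shared with other genes. Which gene shared them was not shown, and the split of reads between Hamp and Hamp2 is uncertain.

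Libraries held 4797070 (S1) to 11762163 (S12) counts, and the 10 genes took 1.11% to 2.05% of them. Scly stood at 73.1 to 105 CPM in the WT libraries and 4.84 to 6.90 CPM in the KO libraries, as labelled. No replicate pair was alike within counting noise, with a chi-square of 9.86 to 245 per degree of freedom. S12 stood apart, with a mean Spearman correlation to the others of 0.873 against 0.912 to 0.964 elsewhere. S7 and S8 carried 16.99% and 19.86% of their counts in the ribosomal repeat gene Rn45s, against 2.45% to 9.23% in the other libraries. The summed level of 8 of 8 hepatocyte markers was lowest in S12 at 64450 CPM and lay between 78210 and 123900 CPM elsewhere. In whole liver RNA, fewer cells of a type and less RNA per cell cannot be told apart.

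Per kilobase of transcript, the level of Trf came first at a mean of 4540 CPM per kilobase, followed by Ftl1 at 2020, Hamp at 1910 and Fth1 at 846 CPM per kilobase. Hamp2 at 277 and Cp at 238 came next, then Tfr2 at 83.9 and Slc40a1 at 66.5 CPM per kilobase. Tfrc at 5.65 and Steap2 at 1.92 CPM per kilobase were the lowest. The spans of the 12 libraries overlapped for each pair of neighbours from Ftl1 to Cp and for Tfr2 with Slc40a1, while Trf, Tfrc and Steap2 each stood clear of their neighbours. Trf cleared Ftl1 only narrowly and overlapped Hamp, with its lowest value, 2660 in S1, below the highest of Hamp, 2980 in S10. The serum carrier and the ferritin storage proteins thus lay far above the importers in mRNA level.

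The genes varied unequally among libraries. Hamp2 spanned 22.4-fold from S12 to S4, Tfrc 4.19-fold from S10 to S12, and Hamp 3.55-fold from S12 to S10. The other 7 genes spanned 1.75-fold to 2.36-fold. KO LS held both ends of the range for Hamp and for Tfrc, as the plot of levels by library shows.

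**Figure D1:**
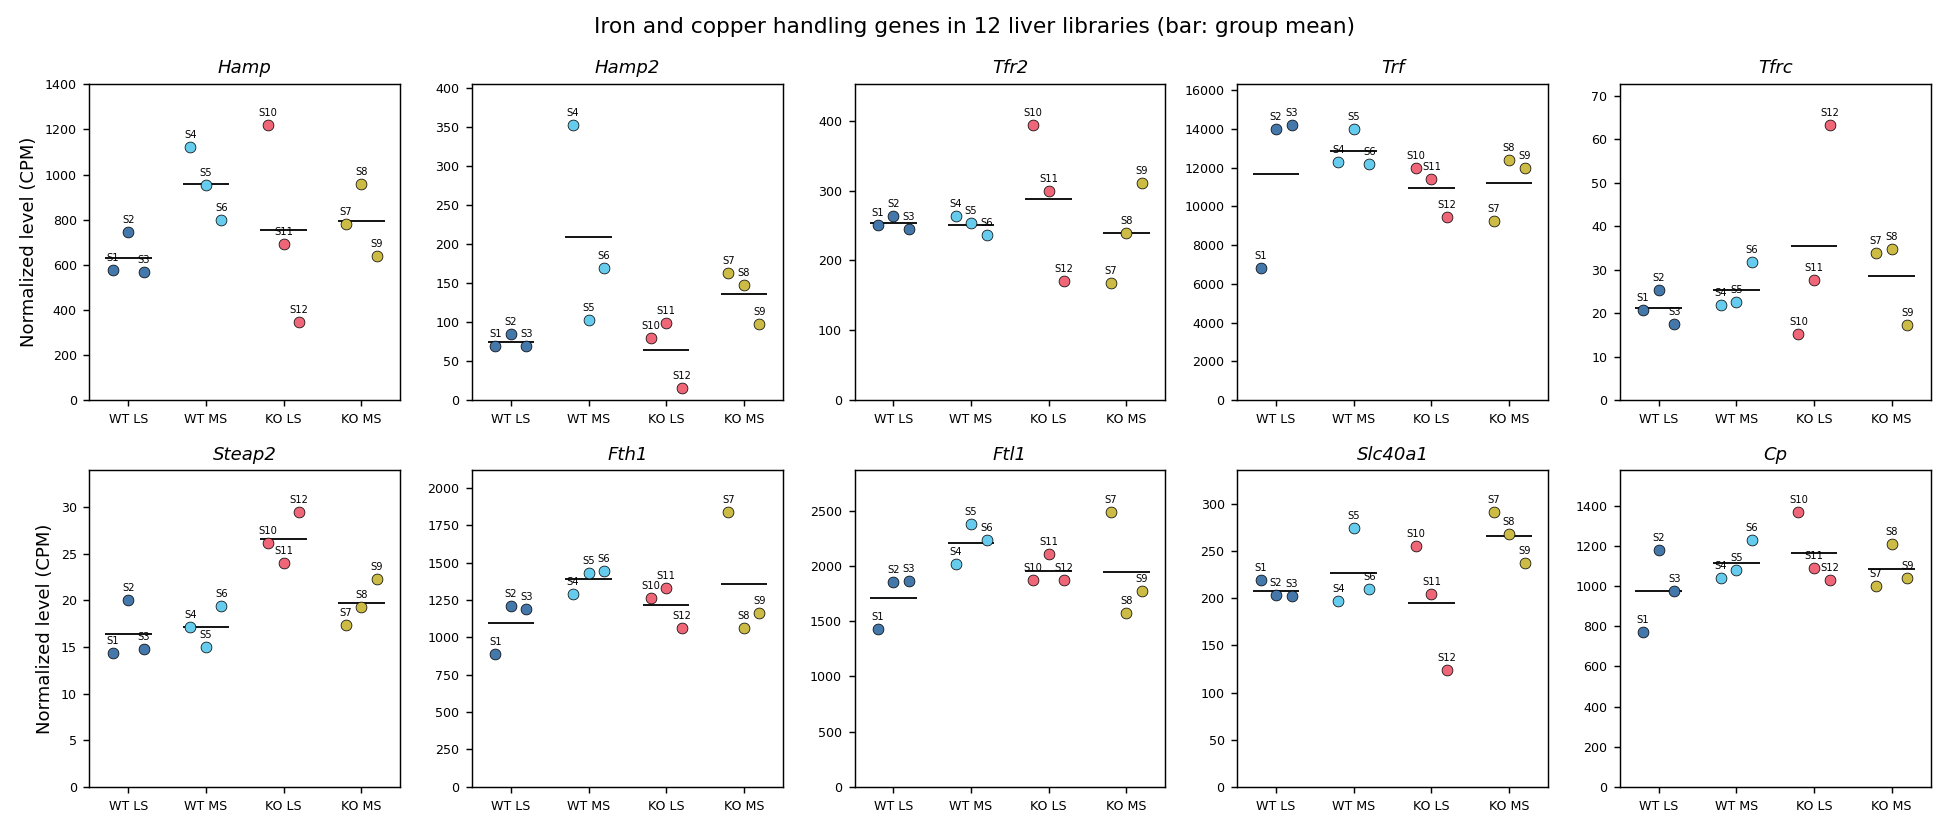
Normalized level (CPM, linear axis from 0) of each of the 10 genes in the 12 libraries, by group, with a point for each library, its name above it and a bar at the group mean. Within KO LS, S10 was highest and S12 lowest for Hamp, and the reverse order held for Tfrc.

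Hamp (chromosome 7, 30942369 to 30944029, minus strand, mm10) encodes hepcidin. Its level was 577, 746 and 568 CPM in WT LS, 1120, 953 and 800 CPM in WT MS, 1220, 693 and 345 CPM in KO LS, and 781, 956 and 639 CPM in KO MS. All 3 WT LS libraries lay below all 3 WT MS libraries, while KO LS spread beyond both ends of KO MS. The mean was 630 ± 100 CPM in WT LS and 959 ± 162 CPM in WT MS (SD, n = 3 each). Low selenium against adequate selenium in WT gave a log2 fold change of -0.60 ± 0.39 (SE), which did not pass the test (edgeR unadjusted p = 0.14, adjusted p = 1). In Scly KO the means were 754 ± 442 CPM on low selenium and 792 ± 158 CPM on adequate selenium, a difference within the spread of KO LS alone. Scly KO against WT gave log2 fold changes of 0.26 ± 0.38 on low selenium (edgeR adjusted p = 0.757) and -0.28 ± 0.38 on adequate selenium (edgeR adjusted p = 0.999). The value on low selenium rested on single libraries: it was -0.28 without S10 and 0.58 without S12.

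Hamp2 (chromosome 7, 30922372 to 30924181, minus strand) is the second hepcidin gene of the mouse. Its level was 68.8, 84.2 and 69.3 CPM in WT LS, 353, 103 and 170 CPM in WT MS, 79.3, 99.1 and 15.7 CPM in KO LS, and 163, 148 and 98.0 CPM in KO MS. In WT the 3 low selenium libraries lay below the 3 adequate selenium libraries, and in Scly KO the groups overlapped by 1 library on each side. Low against adequate selenium gave a log2 fold change of -1.49 ± 0.55 in WT (edgeR unadjusted p = 0.0183, adjusted p = 1) and of -1.08 ± 0.55 in Scly KO (edgeR unadjusted p = 0.071, adjusted p = 0.246). Averaged over genotypes it was -1.28 ± 0.39 (edgeR unadjusted p = 0.0057, adjusted p = 0.374). Hamp2 therefore had the largest diet difference in size of the 10 genes in each genotype, and it did not pass the test after adjustment over all genes. Single libraries carried part of it: the value in WT was -0.88 without S4, and in Scly KO it was -0.63 without S12 and -0.60 without S7 and S8. Scly KO against WT on adequate selenium gave -0.61 ± 0.54 (edgeR adjusted p = 0.999), and -0.00047 without S4.

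The share of Hamp2 in the counts of both hepcidin genes was 10.7%, 10.1% and 10.9% in WT LS, 23.9%, 9.72% and 17.5% in WT MS, 6.09%, 12.5% and 4.37% in KO LS, and 17.3%, 13.4% and 13.3% in KO MS. In Scly KO the 3 low selenium libraries lay below the 3 adequate selenium libraries, and in WT the groups overlapped through S5. With the counts of both genes summed before the fit, which sets aside how reads were split, low against adequate selenium gave a log2 fold change of -0.73 ± 0.40 in WT (edgeR unadjusted p = 0.0883, adjusted p = 1) and -0.18 ± 0.39 in Scly KO (edgeR adjusted p = 0.777).

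**Figure D2:**
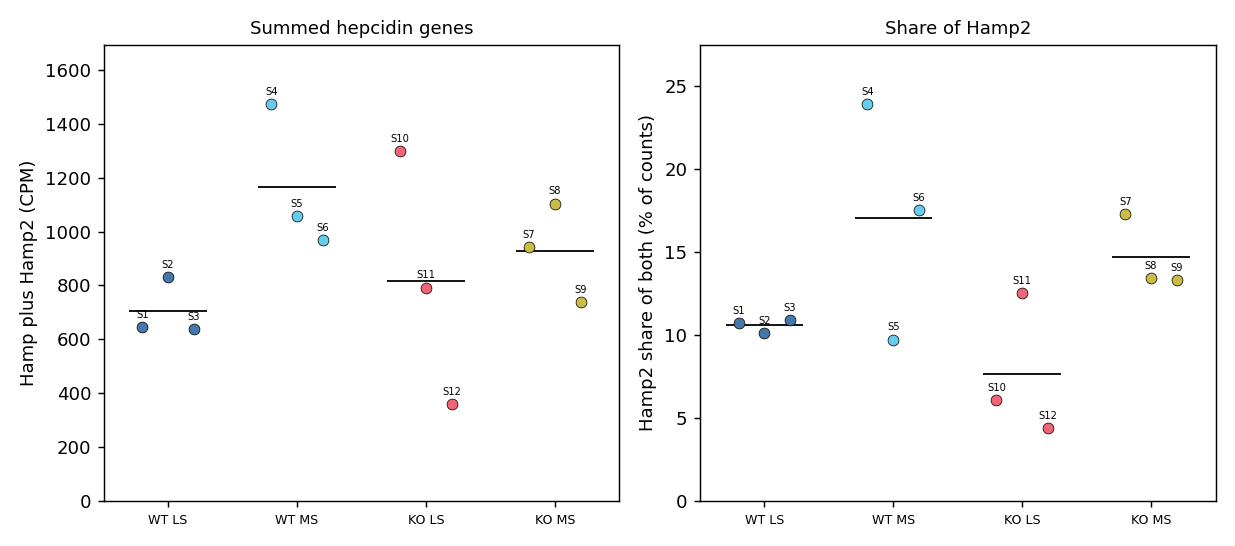
Left, summed level of Hamp and Hamp2 (CPM) by group; right, share of Hamp2 in the counts of both genes (%). Points are libraries with their names and bars are group means; S4 had the highest share at 23.9% and S12 the lowest at 4.37%.

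Tfr2 (chromosome 5, 137569840 to 137588081, plus strand) encodes transferrin receptor 2, a hepatocyte sensor of iron-laden transferrin that feeds into hepcidin control. Its level was 250, 264 and 245 CPM in WT LS, 264, 254 and 236 CPM in WT MS, 394, 299 and 170 CPM in KO LS, and 168, 239 and 311 CPM in KO MS. WT libraries were close together on both diets, and KO libraries spread above and below them. The mean was 253 ± 10.1 CPM in WT LS and 251 ± 14.2 CPM in WT MS, against 288 ± 112 CPM in KO LS and 240 ± 71.5 CPM in KO MS (SD, n = 3 each). Low against adequate selenium in Scly KO gave a log2 fold change of 0.26 ± 0.31 (edgeR adjusted p = 0.583), which was -0.034 without S10.

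Trf (chromosome 9, 103208876 to 103230286, minus strand) encodes transferrin, the iron carrier of serum, and was the most abundant of the 10 mRNAs. Its level was 6830, 14000 and 14200 CPM in WT LS, 12300, 14000 and 12200 CPM in WT MS, 12000, 11400 and 9450 CPM in KO LS, and 9250, 12400 and 12000 CPM in KO MS. S1, the library with the fewest counts, was low for Trf and also the lowest of the 12 for Fth1, Ftl1, Cp and Steap2. Between group means Trf differed by less than 0.25 on the log2 scale in all 4 simple comparisons, which set the genotypes against each other on either diet and the diets against each other in either genotype.

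Tfrc (chromosome 16, 32608896 to 32632794, plus strand) encodes transferrin receptor 1, which takes up iron-laden transferrin and whose 3′ UTR holds the 4 elements printed above. Its level was 20.7, 25.4 and 17.5 CPM in WT LS, 21.8, 22.5 and 31.7 CPM in WT MS, 15.1, 27.6 and 63.3 CPM in KO LS, and 33.8, 34.8 and 17.2 CPM in KO MS. The highest and the lowest of the 12 libraries were both in KO LS, and every pair of groups overlapped. Scly KO against WT on low selenium gave a log2 fold change of 0.74 ± 0.43 (edgeR unadjusted p = 0.111, adjusted p = 0.474), which was -0.017 without S12. Low against adequate selenium gave 0.31 ± 0.43 in Scly KO (edgeR adjusted p = 0.645), which was -0.43 without S12, and -0.25 ± 0.44 in WT (edgeR adjusted p = 1).

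Steap2 (chromosome 5, 5664829 to 5694568, minus strand) encodes a metalloreductase that reduces iron and copper for uptake. Its level was 14.3, 20 and 14.8 CPM in WT LS, 17.1, 15 and 19.4 CPM in WT MS, 26.1, 24.0 and 29.5 CPM in KO LS, and 17.4, 19.3 and 22.3 CPM in KO MS. All 3 KO LS libraries lay above all 9 others, a pattern whose share over all tested genes was not counted. In either direction, KO LS did not overlap WT LS for 24.9% of tested genes and KO MS for 10.9%. The mean was 26.5 ± 2.79 CPM in KO LS, against 16.4 ± 3.15 CPM in WT LS, 17.2 ± 2.23 CPM in WT MS and 19.7 ± 2.46 CPM in KO MS (SD, n = 3 each). Scly KO against WT on low selenium gave a log2 fold change of 0.69 ± 0.21, or 1.61-fold, with an edgeR unadjusted p of 0.00659 that became 0.439 after adjustment over all genes. Leaving out each library in turn kept this value between 0.58 and 0.84. As the groups did not overlap, leaving out 1 library could not be expected to turn its direction. Leaving out a library of WT MS or KO MS removed none of those compared. Averaged over diets Scly KO against WT gave 0.44 ± 0.15 (edgeR unadjusted p = 0.0116, adjusted p = 1), and low against adequate selenium in Scly KO gave 0.43 ± 0.21 (edgeR unadjusted p = 0.0624, adjusted p = 0.238). The difference between the genotypes in their response to diet was 0.49 ± 0.30 (edgeR unadjusted p = 0.127, adjusted p = 0.65).

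Fth1 (chromosome 19, 9980600 to 9985111, plus strand) and Ftl1 (chromosome 7, 45457944 to 45459886, minus strand) encode the heavy and light chains of ferritin, the cell's iron store. Fth1 stood at 888, 1210 and 1190 CPM in WT LS, 1290, 1430 and 1440 CPM in WT MS, 1260, 1330 and 1060 CPM in KO LS, and 1840, 1060 and 1160 CPM in KO MS. Ftl1 stood at 1430, 1850 and 1860 CPM in WT LS, 2020, 2380 and 2230 CPM in WT MS, 1870, 2110 and 1870 CPM in KO LS, and 2490, 1570 and 1770 CPM in KO MS. In WT both chains were lower in all 3 low selenium libraries than in all 3 adequate selenium libraries, with log2 fold changes of -0.34 ± 0.29 for Fth1 and -0.37 ± 0.28 for Ftl1 (edgeR adjusted p = 1 for each). Without S1 these values were -0.21 and -0.25. All 3 KO LS libraries lay above the 3 WT LS libraries for Ftl1, by a log2 fold change of 0.19 ± 0.28 (edgeR adjusted p = 0.76), although the nearest of them differed only slightly. The ratio of Ftl1 to Fth1 in CPM lay between 1.35 in S7 and 1.76 in S12.

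Slc40a1 (chromosome 1, 45908070 to 45925594, minus strand) encodes ferroportin, the iron exporter that hepcidin removes, and in liver it is known for its expression in macrophages as well as hepatocytes. Its level was 219, 204 and 202 CPM in WT LS, 197, 275 and 210 CPM in WT MS, 256, 205 and 124 CPM in KO LS, and 292, 268 and 237 CPM in KO MS. Low against adequate selenium in Scly KO gave a log2 fold change of -0.45 ± 0.27 (edgeR unadjusted p = 0.122, adjusted p = 0.3), which was -0.22 without S12. The summed level of 11 of 11 Kupffer cell markers was 287 to 296 in KO LS and 310 to 616 CPM in KO MS. It was highest in S7, where Slc40a1 was also highest, and next highest in S1 at 515 CPM, where Slc40a1 stood at 219 CPM. Within KO LS Slc40a1 spanned 124 to 256 CPM over that narrow range of the sum. Of the 11 markers 2 had a log2 fold change above 0 in KO LS against KO MS, without an unadjusted edgeR p below 0.05. Another 5 were lower at an unadjusted edgeR p below 0.05, beside 21.9% of all tested genes in either direction. The part of these cells in the difference in Slc40a1 was not tested. Cp (chromosome 3, 19957054 to 20009750, plus strand), for ceruloplasmin, lay between 771 CPM in S1 and 1370 CPM in S10. Scly KO against WT on low selenium gave 0.25 ± 0.27 for Cp (edgeR adjusted p = 0.653), which was 0.10 without S1, and its other 3 simple comparisons were below 0.25 in size.

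Across the 4 simple comparisons, the averages over diets and over genotypes and the genotype by diet interaction, 0 of the 10 genes passed an edgeR adjusted p of 0.05, and DESeq2 called 0 of them in each. All 10 had passed the filter on low counts. In none of these comparisons did edgeR call more than 1 gene of the whole table.

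For Scly KO against WT on low selenium edgeR called 0.00833% of 12009 tested genes, which was Scly alone, while 11.2% had an unadjusted p below 0.05, among them Steap2 as 1 of the 10. DESeq2 called 0.393% and limma-voom 0.749% of genes there. The groups did not overlap for 24.9% of genes and for 2 of the 10, Steap2 and Ftl1. The median log2 fold change was 0.19 over the 10 genes and 0.06 over all tested genes. Hamp2, Tfr2, Trf, Fth1 and Slc40a1 lay between -0.20 and 0.19.

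On adequate selenium Scly KO against WT called 0.00833% of genes by edgeR, 0.0251% by DESeq2 and 7.54% by limma-voom, and 0.924% had an unadjusted edgeR p below 0.05, none of them among the 10. Groups did not overlap for 4.72% of genes and for 0 of the 10. Limma-voom called 1 of the 10, Ftl1, at a log2 fold change of -0.49 (limma-voom adjusted p = 0.0442), against -0.19 by edgeR. The 8 genes other than Hamp and Hamp2 lay between -0.19 and 0.22. Averaged over diets, Scly KO against WT called 0.00833% of genes by edgeR, 0.226% by DESeq2 and 0.566% by limma-voom, none of the 10, and 3.74% had an unadjusted edgeR p below 0.05, again with Steap2 as 1 of the 10.

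Low against adequate selenium in WT called 0% of genes by edgeR, 0.0167% by DESeq2 and 0.15% by limma-voom, with 2.29% at an unadjusted edgeR p below 0.05, among them Hamp2 as 1 of the 10. Groups did not overlap for 11.7% of genes and for 4 of the 10, Hamp, Hamp2, Fth1 and Ftl1, all lower on low selenium. The median was -0.22 over the 10 genes and 0.01 over all tested genes, and 9 of the 10 lay below 0. Tfr2, Trf, Steap2, Slc40a1 and Cp lay between -0.19 and 0.01.

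In Scly KO, low against adequate selenium called 0% of genes by edgeR, but 21.9% had an unadjusted p below 0.05, with 0 of the 10 among them. DESeq2 called 4.79% of the 2691 genes to which it gave an adjusted p, which included 8 of the 10 and left out Tfrc and Steap2, and 0 of those 8 were called. Limma-voom with library weights called 49.9% of genes and 4 of the 10, Hamp2, Tfr2, Tfrc and Steap2, a share below that of all genes. Groups did not overlap for 10.9% of genes and for Steap2 as 1 of the 10. Hamp, Trf, Fth1, Ftl1 and Cp lay between -0.15 and 0.10 in log2 fold change. Averaged over genotypes, the diet comparison called 0.00833% of genes by edgeR, 0.0251% by DESeq2 and 41.3% by limma-voom, the last with Hamp2, Tfr2 and Tfrc as 3 of the 10, and 13.3% had an unadjusted edgeR p below 0.05, with Hamp2 as 1 of the 10.

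For the genotype by diet interaction edgeR and DESeq2 each called 0% of genes and limma-voom 17.3%, none of them among the 10, while 6.73% had an unadjusted edgeR p below 0.05, also without any of the 10. Of the 10 genes 9 had an interaction above 0, and the median log2 value was 0.33 beside 0.05 over all tested genes. It reached 0.57 ± 0.61 for Tfrc (edgeR adjusted p = 0.722), and Slc40a1 was the one gene below 0, at -0.32 ± 0.38 (edgeR adjusted p = 0.747). Without S12 the interaction of Tfrc was -0.19 and 8 of the 10 lay above 0, and without S10 that of Hamp was -0.0072 and 7 of the 10 lay above 0.

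**Figure D3:**
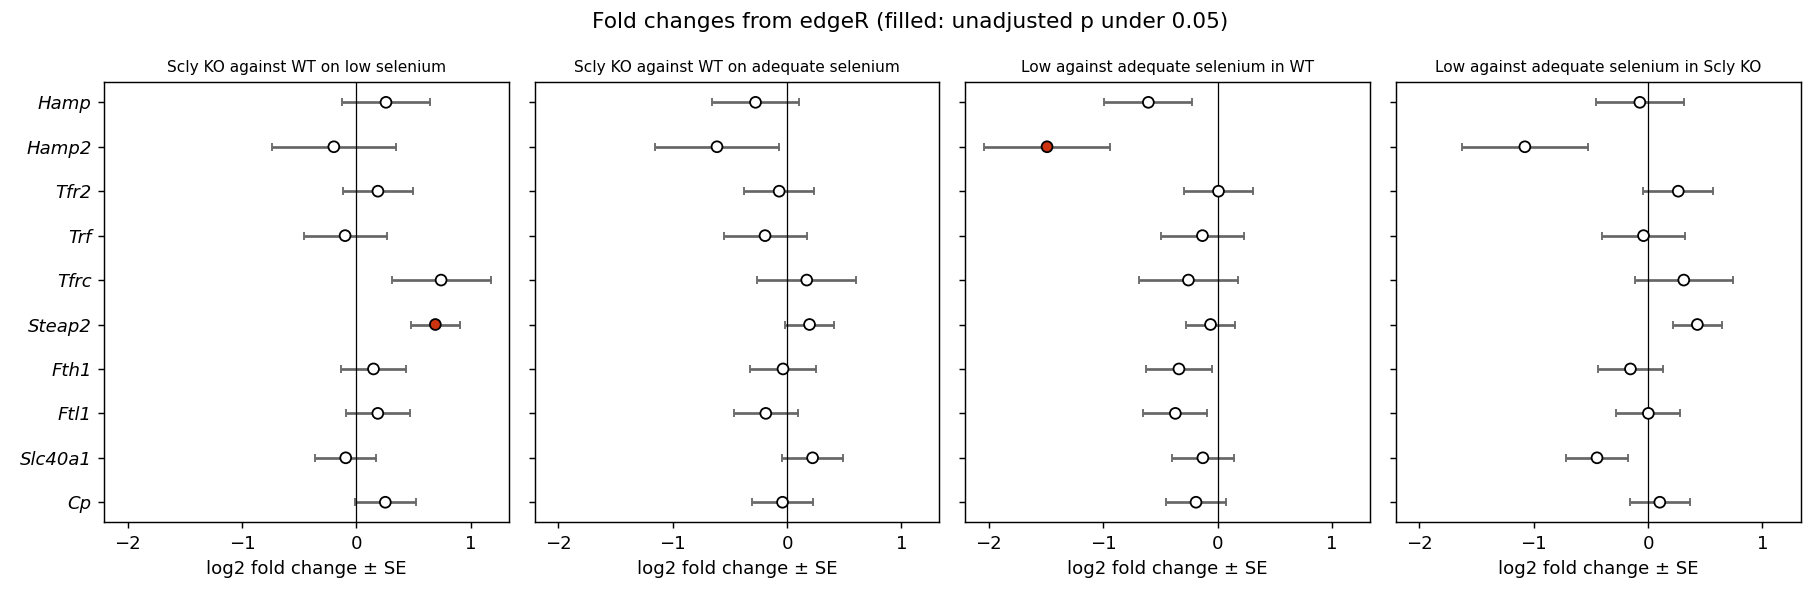
Log2 fold change of each of the 10 genes from edgeR in the 4 simple comparisons, with bars of 1 SE. Filled points have an unadjusted p below 0.05, which holds for Steap2 at 0.69 in KO LS against WT LS and for Hamp2 at -1.49 in low against adequate selenium in WT; no point passed after adjustment.

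The regulators of hepcidin were read in a list of 22 symbols, some of them older and newer names of the same gene. Of these symbols 20 were found and 19 were tested. By edgeR 0 were called in KO LS against WT LS, and 1 had an unadjusted p below 0.05, beside 11.2% of all tested genes. That was Stat3, the transcription factor of interleukin-6 signals, at a log2 fold change of 0.96 ± 0.33 (edgeR unadjusted p = 0.0117, adjusted p = 0.439). Stat3 stood at 36.7, 50.3 and 55.1 CPM in WT LS and 104, 59.8 and 114 CPM in KO LS, with S10 and S12 high. Bmp2, a ligand from the endothelium that induces hepcidin, gave -0.46 ± 0.24 and Smad7, an inhibitor of BMP signals, gave 0.46 ± 0.29 (edgeR adjusted p = 0.447 and 0.487). In KO LS against KO MS 3 genes were higher and 1 lower at an unadjusted p below 0.05, or 4 of 19, beside 21.9% of all tested genes, and limma-voom called 8 of the 19 beside 49.9% of all genes. Hfe, a partner of transferrin receptors in iron sensing, gave -0.75 ± 0.29, Stat3 0.83 ± 0.33 and the interleukin-6 receptor gene Il6ra 0.94 ± 0.40, each with an edgeR adjusted p of 0.205 to 0.212. The median of the list was 0.04 in the first comparison and 0.11 in the second, beside 0.06 over all tested genes in each. Without S7 and S8, which left S9 alone in KO MS, the median of the list in KO LS against KO MS was -0.01.

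Of 18 genes for iron uptake, storage and sensing, 15 were tested and 0 were called by edgeR in KO LS against WT LS. There 2 were higher and 1 lower at an unadjusted p below 0.05, beside 11.2% of all tested genes. Lcn2, lipocalin 2, which binds iron-bearing siderophores, had the smallest p, at 5.67 ± 1.10 (edgeR adjusted p = 0.3). It stood at 54.0 and 51.4 CPM in S10 and S12 and between 0.416 and 2.33 CPM in the other 10 libraries. DESeq2 called 1 gene of the list in KO LS against WT LS, beside 0.393% of all genes. Steap4, a further metalloreductase, gave 0.70 ± 0.22 and Scara5, a receptor for ferritin, gave -1.78 ± 0.62 (edgeR adjusted p = 0.439 for each). In the diet comparison in Scly KO, Lcn2 gave 4.38 ± 0.97, Fbxl5, the iron-sensing ligase subunit that removes iron regulatory protein 2, gave -1.05 ± 0.31, and the iron chaperone gene Pcbp1 gave 0.55 ± 0.26 (edgeR adjusted p = 0.201 to 0.23). The median of the list was 0.27 in KO LS against WT LS and 0.19 in KO LS against KO MS, beside 0.06 over all tested genes in each. In the latter 2 of the 15 had an unadjusted p below 0.05, beside 21.9% of all tested genes. Without S7 and S8 the median there was -0.05. Fbxl5 stood at 122 and 80.8 CPM in S7 and S8 and 46.1 CPM in S9, beside 38.7, 49.0 and 32.8 CPM in KO LS.

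All 18 genes of iron-sulfur cluster assembly in the list were tested, and 0 were called by edgeR in either comparison. In Scly KO, 6 had an unadjusted p below 0.05 with diet, all lower, beside 21.9% of all tested genes. Limma-voom called 10 of the 18, beside 49.9% of all genes, and the median of the list was -0.32 against 0.06 over all tested genes. Isca2 gave -1.26 ± 0.40 and the cochaperone gene Hscb gave -1.17 ± 0.45 (edgeR adjusted p = 0.201 and 0.205). Isca2 stood at 65.1 and 38.9 CPM in S7 and S8 but at 17.6 CPM in S9, beside 16.7, 23.4 and 10.9 CPM in KO LS. Without S7 and S8, which left S9 alone in KO MS, the list median in this comparison was -0.07. For Scly KO against WT on low selenium the ferredoxin gene Fdx1 gave -0.95 ± 0.32, Hscb -0.77 ± 0.46 and the cysteine desulfurase gene Nfs1 -0.39 ± 0.25 (edgeR adjusted p = 0.439 to 0.492).

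All 18 heme genes were tested and 0 were called by edgeR. In KO LS against WT LS 2 were higher and 0 lower at an unadjusted p below 0.05, beside 11.2% of all tested genes. Hmox1, heme oxygenase 1, which frees iron from heme, gave 1.27 ± 0.47 for KO LS against WT LS (edgeR unadjusted p = 0.0179, adjusted p = 0.439), and it stood at 58.5 CPM in S12 and between 11.0 and 19.5 CPM in the other 11 libraries. The heme transporter genes Slc48a1 and Flvcr2 gave 0.58 ± 0.22 and 1.16 ± 0.65 (edgeR adjusted p = 0.439 and 0.462). In the diet comparison in Scly KO, 5 of the 18 were lower at an unadjusted p below 0.05 and 0 higher, beside 21.9% of all tested genes in either direction, with a list median of -0.32. Limma-voom called 6 of the 18, beside 49.9% of all genes. The biliverdin reductase genes Blvra and Blvrb gave -1.41 ± 0.39 and -1.03 ± 0.39, and Uros, an enzyme of heme synthesis, gave -1.40 ± 0.44 (edgeR adjusted p = 0.201 to 0.203). As with the iron-sulfur list, S7 and S8 were high for Blvra, at 39.9 and 27.5 CPM against 10.8 CPM in S9. Without them the list median was -0.09. Of 12 erythroid markers 7 were tested, the globin genes and Alas2. They summed to 1820 and 1413 CPM in S7 and S8 and 315 to 1084 CPM elsewhere. The 7 are not all separate measures. In KO LS against KO MS Hbb-bt and Hbb-b2 both gave -1.53 ± 0.38, and Hbb-bs and Hbb-b1 gave -2.15 and -2.13. The part of the erythroid markers in the values of the heme genes was not tested.

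All 16 copper genes were tested, and edgeR called 0 in either comparison. In KO LS against WT LS 3 were higher and 1 lower at an unadjusted p below 0.05, beside 11.2% of all tested genes. The list median there was -0.15. Mt1 and Mt2, the metallothioneins that bind copper and zinc, gave 4.27 ± 0.88 and 5.01 ± 1.19 for KO LS against WT LS (edgeR adjusted p = 0.334 and 0.342). DESeq2 called 2 genes of the list in that comparison, beside 0.393% of all genes. Mt1 stood at 49.0 CPM in S10 and 260 CPM in S12 and at 4.16 to 14.5 CPM in the other 10 libraries. S11 of the same group was thus as low as WT. The study's qPCR on low selenium went the other way, with lower mean Mt1 and Mt2 in male Scly KO than WT livers. Sco2, a copper chaperone of cytochrome oxidase, gave 1.78 ± 0.63 (edgeR adjusted p = 0.439). In the diet comparison in Scly KO, Mt2 gave 5.07 ± 1.17 and Mt1 3.60 ± 0.84, and Cox17, a further copper chaperone of that enzyme, gave -1.20 ± 0.36 (edgeR adjusted p = 0.201 for each). There 2 genes of the list were higher and 5 lower at an unadjusted p below 0.05, or 7 of 16 beside 21.9% of all tested genes, with a median of -0.48. Limma-voom called 11 of the 16, beside 49.9% of all genes. Without S7 and S8 the median was -0.04.

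Among the 10 genes, the 3 KO LS libraries differed from one another most in Hamp2, Tfrc and Hamp, by 6.29-fold, 4.19-fold and 3.55-fold. Genes outside the 10 differed more, such as Mt2 and Saa2. S10 had the highest Hamp, Tfr2 and Cp, and there the acute phase genes Saa1 and Saa2 stood at 919 and 751 CPM against 7.29 to 57 and 3.19 to 17.3 CPM in the other 11 libraries. The sum of 15 of 16 acute phase genes was 31690 CPM in S10 and 13530 to 24230 CPM elsewhere, lowest in S12. Genes of that list went different ways in S12. Lcn2 stood at 51.4 CPM there, beside 54.0 CPM in S10 and 0.416 to 2.33 CPM elsewhere. Orm2 stood at 8.01 CPM in S12, 40.1 CPM in S10 and 1.37 to 4.14 CPM elsewhere. Saa1 and Saa2 in S12, at 24.2 and 12.1 CPM, were within the range of the libraries other than S10. S12 had the lowest Hamp, Hamp2 and Slc40a1 and the highest Tfrc and Steap2. In S12 the sum of 3 of 7 bile duct markers was 271 CPM against 22.0 to 40.5 CPM elsewhere, of which Spp1, osteopontin, gave 253 CPM, while the bile duct markers Epcam, Krt7 and Cftr were below the filter. The part of the acute phase genes and of other cell types in the levels of Hamp and Tfrc was not tested, and S11 lay between S10 and S12 for both genes.

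**Figure D4:**
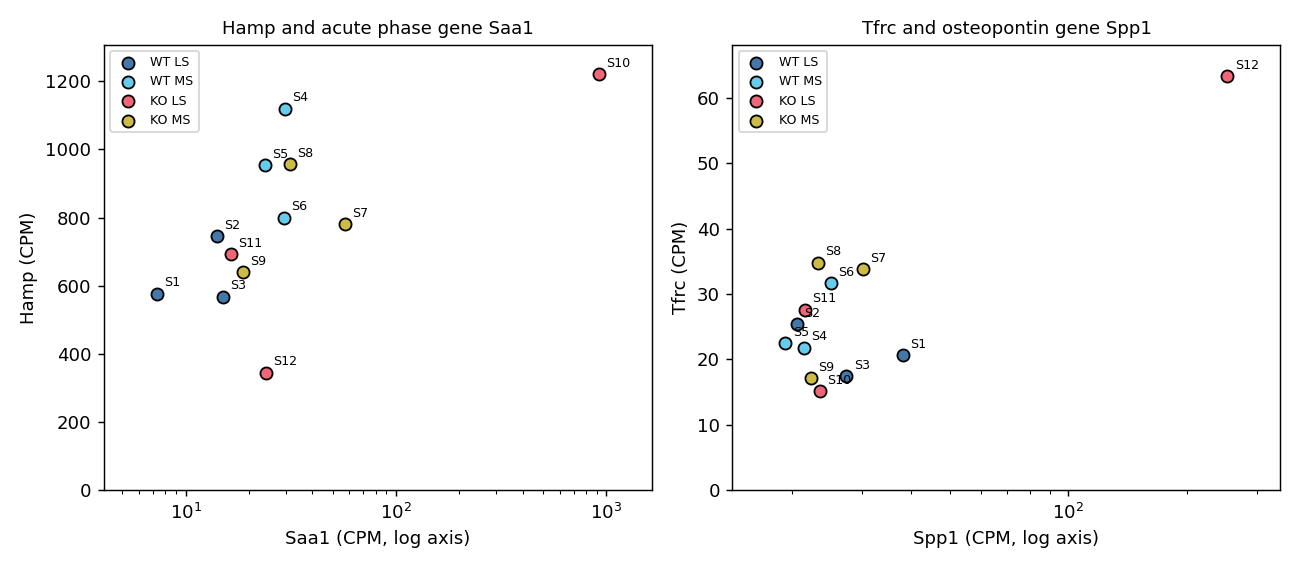
Left, Hamp (CPM) against the acute phase gene Saa1 (CPM, log axis); right, Tfrc (CPM) against Spp1 (CPM, log axis). Each point is a library, coloured by group. S10 stands alone in Saa1 at 919 CPM with Hamp at 1220 CPM, while S4 had Hamp at 1120 CPM with Saa1 at 29.7 CPM. S12 stands alone in Spp1 at 253 CPM with Tfrc at 63.3 CPM.

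The genes most like Hamp, Tfrc and Steap2 across the 12 libraries were found by the root mean square difference of log2 levels, each centred on its own mean. Nearest to Hamp, whose own root mean square was 0.475, were Ccdc151 at 0.201 and Bhmt2, a homocysteine methyltransferase gene, at 0.248. Ccdc151 stood at only 0.167 to 1.89 CPM, near the pseudocount of 0.5, so its likeness to Hamp is imprecise. Nearest to Tfrc, with its own 0.536, were Clca3a1 at 0.178 and the leukocyte integrin gene Itgb2 at 0.214. Like Tfrc, both were highest in S12, at 13.1 and 19.6 CPM against at most 10 and 10.2 CPM elsewhere. Like Hamp, Ccdc151 and Bhmt2 were lowest in S12. The likeness without S12 was not computed. Nearest to Steap2, with its own 0.311, were Frrs1, ferric chelate reductase 1, at 0.15 and Efl1, a ribosome assembly factor, at 0.154. Frrs1 stood at 29.5 CPM in S12 and 15 CPM in S3, close to the level of Steap2 in both.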

How the data were processed

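Poly(A) RNA of male mouse liver was sequenced in 12 libraries. Per the labels and methods, the authors checked reads with FastQC, trimmed them with Cutadapt, used STAR within Partek Flow to align them to mm10, and deposited estimated counts per gene from Partek E/M, which divides reads shared by genes. Of the nonzero values 85.8% were whole (within 0.001), and all were rounded. Column names gave the group, and 0 value columns were left without one. A deposited table of the authors' own comparisons (p-values, FDR, fold changes) was not used.

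Genes passing filterByExpr (minimum count 10) were fitted in edgeR 4.0.16 (R 4.3.3) with TMM factors and a 4-group model, using the quasi-likelihood test and Benjamini-Hochberg adjustment over 12009 genes at 0.05. DESeq2 1.42.0 and limma 3.58.1 (voom with quality weights) were alternatives, with other normalizations and filters, each library left out, S7, S8 and S12 left out together, a length and GC trend removed, and Hamp with Hamp2 summed. The list medians without S7 and S8 were added after seeing the data. The edgeR, DESeq2 and limma steps were tested on simulated data. SE is the log2 fold change divided by the root of F. Lengths are of the longest GENCODE vM21 transcript.

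The 10 genes and the lists were chosen with earlier results of these data known. Named list genes were the 3 of smallest p per list in KO LS against WT LS and in KO LS against KO MS, of which some are not reported here. Fold changes below 0.25 in size were summarised unless groups did not overlap. The log2 levels of the likeness measure used a pseudocount of 0.5. Ends of genes are the deposited stop less 1.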

Additional observations from a re-analysis of the deposited data

How the results depend on the processing

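Under 24 alternatives 592 recomputed values kept their direction and their side of the threshold, 11 turned direction, 5 fold changes came to pass the threshold and 4 counts of called genes moved. With limma-voom the number of the 10 genes called was 1 for KO MS against WT MS, 4 for KO LS against KO MS and 3 averaged over genotypes, against 0 by edgeR. It turned the direction of the log2 fold change for Tfrc on low selenium (-0.10), for Hamp (0.012) and Hamp2 (0.033) on adequate selenium, and for Tfrc with diet in Scly KO (-0.77). With diet in Scly KO, Tfr2 turned to -0.15 with the length and GC trend removed and to -0.12 without S7 and S8. Tfrc on low selenium was -0.011 without S7, S8 and S12. Leaving out 1 library at a time gave 0 to 1 gene called for low against adequate selenium averaged over genotypes, the 1 being Hamp2 without S9, when 17.9% of all genes were called there. It gave -0.28 to 0.58 for Hamp and -0.017 to 1.09 for Tfrc in KO LS against WT LS, and -0.034 to 0.52 for Tfr2 and -0.43 to 0.67 for Tfrc with diet in Scly KO. The cause of these shifts was not tested. Without S9 edgeR called 3979 of 12258 genes for diet in Scly KO, against 0 of 12009 with it. Where only 1 library was left in KO MS, it was assumed to vary like the other groups. Other scalings moved the median of all genes by less than 0.1. No paired analysis was possible because the count columns carry library numbers and not the replicate numbers of the labels. With 3 libraries a group the smallest p an exact permutation test allows is 0.1, and Tfrc and Steap2, at 91 and 63 counts in the shallowest library, were the least precisely counted.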

Other observations

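Further iron genes were looked at after their values were seen. Slc11a2, the divalent metal transporter 1 that carries iron out of endosomes, stood at 66.9 CPM in S12 and at 16.4 to 26.1 CPM in the other 11 libraries. Cd163, the macrophage receptor for haemoglobin bound to haptoglobin, stood at 0.557 CPM in S12 and at 4.55 to 12.5 CPM elsewhere. Slc31a1, the copper importer, was lowest in S12 and S1, at 103 and 123 CPM, and lay between 209 and 248 CPM in the other 10 libraries. Tmprss6, the protease that restrains hepcidin, was lowest in S12 at 188 CPM and highest in S1 at 482 CPM. The BMP target gene Id1 stood at 12.7 CPM in S1 and 12.2 CPM in S12, its highest levels, and at 3.91 to 9.69 CPM elsewhere.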
